A study of Ovis aries with 6 samples.

Results

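The collagen genes of sheep skin were taken as every gene whose symbol reads COL, a number, A and a number and nothing else, and 42 of the 28394 genes in the files met that rule. They were sorted into classes by the assembly their chains form: 11 fibrillar collagens, 5 of the type IV basement membrane network, 5 of the type VI beaded filaments, 1 of the anchoring fibrils, 3 of the short-chain networks, 9 of the FACIT class that sits on fibril surfaces, 4 transmembrane collagens, 2 multiplexins and 2 left unclassified. Skin RNA of 6 ewes was sequenced, 3 of the Super Merino (SM) breed, a fine-wool breed, and 3 of the Small Tail Han (STH) breed, a coarse-wool breed. The SM ewes were numbered 128, 30034 and 30126, the STH ewes XW3, XW5 and XW8, and values by animal follow this order. All 6 carried the label of 9 months of age, whereas the methods of the study give a younger age. Both breeds were kept on 1 farm with the same feed, no treatment was given, and skin was taken behind the shoulder blade in autumn. The breeds are not lines that differ at a known allele, so any difference between the groups is one between 3 individual ewes of each breed.

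Collagens are the main proteins of the extracellular matrix, built from alpha chains that wind around each other into a helix and are then secreted, trimmed, assembled and cross-linked. In skin, fibroblasts of the dermis make most of the fibrillar types I and III, which give the tissue its strength, whereas type IV forms the sheet under the epidermis and around vessels, and type VI forms fine filaments in the nearby matrix. Some collagens are made by keratinocytes, such as the type XVII collagen of the hemidesmosome, so the set is not purely a dermal one.

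The depth was 28870583 to 44645091 counts per sheep, so that 3 counts, taken as the floor of detection, stood for 0.0672 to 0.104 CPM, the counts scaled to a common library size. Of the 42 genes, 38 had at least 10 counts in at least 3 sheep and were tested for a breed difference together with 15320 genes in all. The 4 genes that were not tested were COL10A1 with 0 counts in every sheep, COL9A2 with 0 to 11 counts, COL9A3 with 2 to 6 counts and COL20A1 with 0 to 6 counts. Types IX and X are best known from cartilage. The remaining type IX chain, COL9A1, is not listed under that symbol, but the name table gives it for LOC101102992, which had 25, 18 and 48 counts in SM and 19, 80 and 16 counts in STH (log2 difference -0.33 ± 0.64) and was not counted among the 42. COL10A1 lies wholly inside NT5DC1 on the opposite strand. The library kit is not described as marking strand, so reads from that place could not be assigned to either strand.

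Levels were compared between genes per length, as the deposited RPKM, which divide the reads of a gene by its exon length and by the depth of the library. COL1A1, a chain of type I collagen, had the highest mean with 884.9 ± 155 RPKM (SD over 6 sheep), followed by its partner chain COL1A2 with 632.0 ± 87.4 RPKM and by COL3A1, the chain of type III collagen, with 625.1 ± 96.5 RPKM. COL1A2 and COL3A1 did not differ beyond their spread, while COL1A1 was above both in each of the 6 sheep. The type VI chain COL6A1 came next with 180.3 ± 21.2 RPKM. These 4 genes held places 97, 120, 122 and 278 among all genes by mean RPKM.

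Below them stood COL6A2 with a mean of 80.3 ± 8.47 RPKM and COL17A1, the hemidesmosome collagen, with 71.1 ± 5.25 RPKM. COL4A1, the main chain of the basement membrane network, had 43.5 ± 8.69 RPKM and COL5A2, a chain of the type V collagen that starts type I fibrils, had 41.8 ± 5.94 RPKM. Over all sheep these means did not differ beyond their spread. By sheep, COL4A1 was above COL5A2 in each SM sheep, only just so in 128 (41.96 against 41.8 RPKM), and below it in each STH sheep. COL6A3, COL12A1, COL15A1, COL18A1, COL5A1, COL14A1 and COL16A1 followed between 35.3 and 14.5 RPKM. In all, 4 members had a mean over 100 RPKM, 11 lay between 10 and 100 RPKM, 11 between 1 and 10 RPKM and 16 under 1 RPKM, against a median of 3.05 RPKM over all genes with a count. COL2A1, the main fibrillar collagen of cartilage, was in the last set with 0.0472 RPKM.

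**Figure D1:**
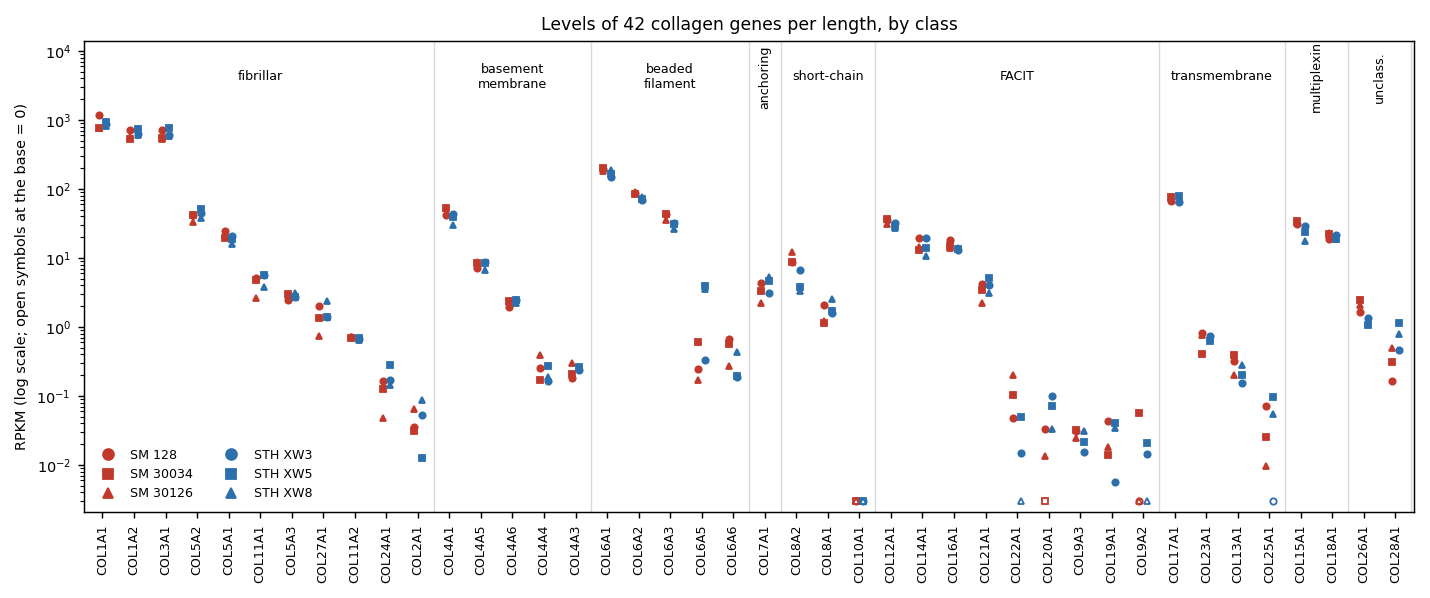
RPKM (log scale) of the 42 collagen genes, grouped by class and ordered by mean level within each, with 1 symbol per sheep (red, SM; blue, STH) and open symbols at the base for a value of 0. COL1A1, COL1A2 and COL3A1 lie above 500 RPKM in every sheep, and 16 genes have a mean under 1 RPKM.

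COL1A1, COL1A2 and COL3A1 together took 74.9% ± 3.19 (SD, n = 6) of all collagen CPM, from 70.0% in the lowest sheep to 78.2% in the highest. The summed CPM of the 11 fibrillar genes was 19241, 13078 and 13310 in SM and 15335, 18628 and 15142 in STH. The breeds overlapped, because sheep 128 had the highest sum of all and the other SM sheep the lowest. The fibrillar share of collagen CPM was 76.1% ± 3.54 in SM and 79.8% ± 1.28 in STH (SD, n = 3 each), which also overlapped.

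The 31 genes outside the fibrillar class, summed, stood at 4790, 4764 and 4462 CPM in SM and at 4039, 4290 and 4030 CPM in STH, so that every SM sheep was above every STH sheep. The means were 4672 ± 182 and 4119 ± 147 CPM (SD, n = 3 each). By class, the SM sheep were all above the STH sheep for the beaded filament genes (2183 ± 146 against 1868 ± 153 CPM), the short-chain network genes (58.0 ± 8.28 against 37.3 ± 6.08 CPM) and the multiplexins (415.1 ± 16.8 against 344.1 ± 46.4 CPM). The breeds overlapped for the basement membrane network (554.3 ± 56.5 against 462.9 ± 67.8 CPM), the FACIT genes (825.8 ± 95.7 against 750.7 ± 70.7 CPM) and the transmembrane genes (588.5 ± 22.7 against 592.6 ± 66.3 CPM). No test was made of these sums, since each is carried by its few most abundant genes and the genes were chosen with earlier results known. Taken as a share of all collagen CPM, the beaded filament genes and the multiplexins overlapped between breeds, and the short-chain genes alone of these 3 classes remained without overlap.

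**Figure D2:**
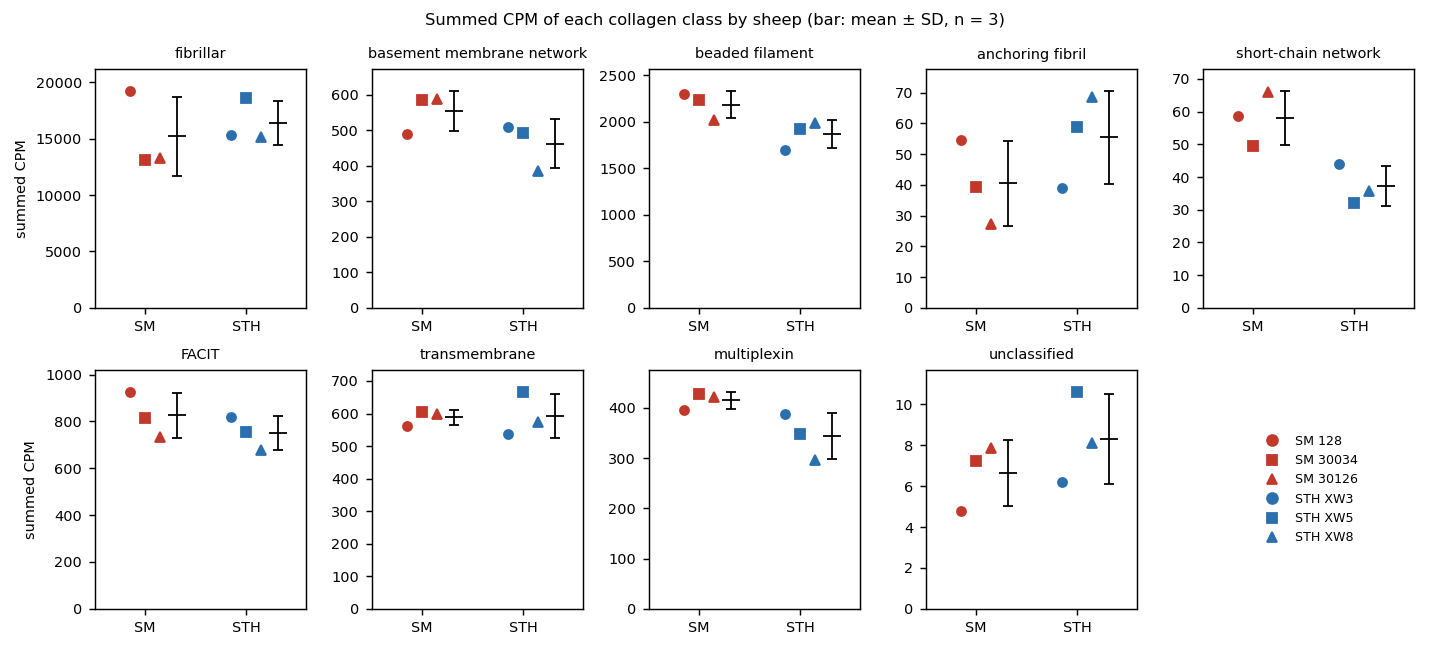
Summed CPM of each collagen class by sheep on axes that start at 0, with the mean and SD of each breed (n = 3) beside the points. The beaded filament, short-chain and multiplexin classes show every SM sheep above every STH sheep, and the fibrillar sum of SM sheep 128 stands apart from the other SM sheep.

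None of the 38 tested collagen genes passed the threshold of an adjusted p under 0.05 with at least a 1.5-fold change in edgeR's quasi-likelihood test, as was the case for 0% of all 15320 genes. The smallest adjusted p of a collagen gene was 0.232, for COL8A2, and the smallest over all genes was 0.0606. At an unadjusted p under 0.05 the test held 7 collagen genes and 2762 genes in all. Of these, 5 collagen genes (13.2% of 38) were higher in SM, against 7.21% of all genes, and 2 (5.26%) were higher in STH, against 10.8% of all genes. DESeq2 placed 1 collagen gene past both thresholds, COL8A2, against 2.87% of all genes, and edgeR's likelihood ratio test placed 2, COL8A2 and COL6A5, against 2.3% of all genes. The study, at the same thresholds in its own edgeR run, listed COL8A2 as higher in SM and COL6A5 as higher in STH.

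By direction, 18 of the 38 genes (47.4%) had a fitted log2 fold change above 0, that is, higher in SM, beside 51.4% of all genes. Their median log2 fold change was -0.01, beside 0.02 over all genes. All 3 SM sheep were above all 3 STH sheep for 5 collagen genes (13.2%), against 12.3% of all genes, and the reverse held for 0 of 38, against 13.3% of all genes. Direction depended in part on gene length: values drifted with exon length in opposite ways between sheep, most in SM sheep 30126, where the longest genes were lower. After the drift was removed for each sheep, 24 of 38 collagen genes (63.2%) were above 0, beside 56.5% of all genes, with medians of 0.17 and 0.07 on the log2 scale.

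**Figure D3:**
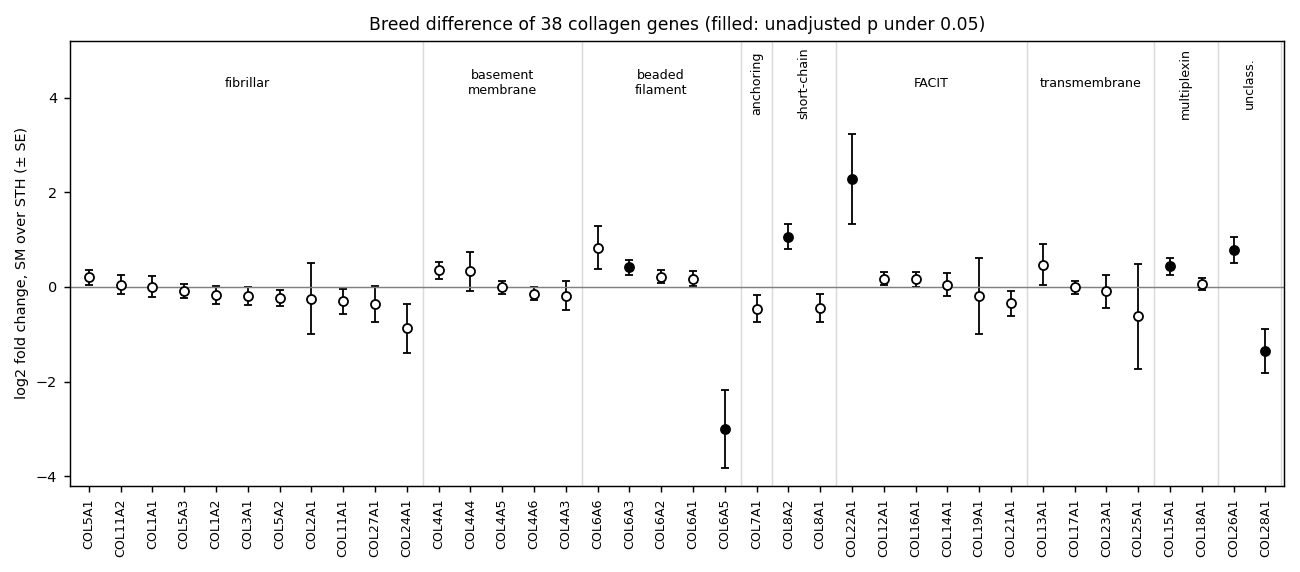
Log2 fold change of SM over STH with its standard error for the 38 tested collagen genes by class, with filled symbols for the 7 genes at an unadjusted p under 0.05. COL6A5 lies lowest at -2.99 and COL22A1 highest at 2.28, both with wide errors, while the abundant fibrillar genes lie near 0 with small errors.

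Of the 11 fibrillar genes, 0 were at an unadjusted p under 0.05, 3 had a fold change above 0 and 8 below, and the median was -0.19 on the log2 scale. That median was -0.03 with the length drift removed and -0.31 to -0.05 with 1 sheep left out, so its size depended on both. COL1A1 had 8048, 5004 and 5018 CPM in SM and 5831, 6494 and 5664 CPM in STH. Sheep 128 was the highest of the 6 and the other SM sheep were the lowest. The breed difference was 0.01 ± 0.22 on the log2 scale (SE, adjusted p = 0.987, edgeR's quasi-likelihood test), and without sheep 128 it was -0.26.

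COL1A2 had 4867, 3357 and 3697 CPM in SM and 4062, 5118 and 4156 CPM in STH, a log2 difference of -0.16 ± 0.19 (adjusted p = 0.631). COL3A1 had 5676, 4131 and 4094 CPM in SM and 4799, 6302 and 4757 CPM in STH, a log2 difference of -0.19 ± 0.20 (adjusted p = 0.583). In both genes sheep 128 lay within the STH range and the other SM sheep below it. The per-length ratio of COL1A1 to COL1A2 was 1.24 to 1.62 and that of COL3A1 to COL1A2 was 0.93 to 1.03 over the 6 sheep. The ratio of COL3A1 to COL1A1 was wider, from 0.60 in sheep 128 to 0.83 in XW5, the sheep in which COL1A1 and COL3A1, respectively, were highest. Type I collagen is mostly built with more of the COL1A1 than of the COL1A2 chain.

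The type V chains, which set the width of type I fibrils, differed in sign. COL5A1 had 156.6, 118.7 and 134.6 CPM in SM and 131.0, 122.0 and 102.3 CPM in STH, a log2 difference of 0.21 ± 0.16 (adjusted p = 0.468). COL5A2 had 391.1, 373.8 and 300.0 CPM in SM and 409.8, 485.1 and 362.3 CPM in STH, a log2 difference of -0.24 ± 0.17 (adjusted p = 0.433). The breeds overlapped in each, and also in the ratio of COL5A1 to COL5A2 per length, which was 0.56 ± 0.10 in SM and 0.41 ± 0.05 in STH (SD, n = 3 each). COL5A3 was lower, with 22.8, 26.5 and 25.7 CPM in SM and 24.3, 25.5 and 29.4 CPM in STH (log2 difference -0.08 ± 0.15, adjusted p = 0.774), a direction that turned to 0.14 once the length drift was removed. COL5A2 and COL3A1 lie next to each other on chromosome 2 in opposite orientation, 16744 bp apart in Oar_v4.0. The other 5 fibrillar genes, COL2A1, COL11A1, COL11A2, COL24A1 and COL27A1, had log2 differences between -0.87 and 0.05, with overlapping breeds.

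In the basement membrane network, COL4A1 had 388.8, 475.4 and 468.8 CPM in SM and 391.9, 371.8 and 284.5 CPM in STH. Its log2 difference was 0.35 ± 0.17 (adjusted p = 0.305), and sheep 128 lay just within the STH range. Its usual partner chain COL4A2 is not listed under that symbol, but the name table gives COL4A2 for LOC101115805, which lies beside COL4A1 on chromosome 10. LOC101115805 had 192.4, 229.8 and 228.7 CPM in SM and 184.5, 157.0 and 137.3 CPM in STH, with all SM sheep above all STH sheep (log2 difference 0.44 ± 0.16, unadjusted p = 0.022, adjusted p = 0.254, edgeR's quasi-likelihood test). COL4A1 exceeded LOC101115805 by a per-length ratio of 1.99 to 2.04 in SM and 2.04 to 2.33 in STH, so that the 2 chains kept nearly the same proportion in 5 sheep and XW5 stood higher. LOC101115805 was not counted among the 42.

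The other type IV chains were less abundant and showed smaller or less certain differences. COL4A5 stood at 6.77 to 8.86 RPKM and COL4A6 at 1.97 to 2.48 RPKM over the 6 sheep, with log2 differences of -0.01 ± 0.15 and -0.14 ± 0.14 that turned to 0.22 and 0.16 once the length drift was removed. Their ratio per length was 3.65 ± 0.14 in SM and 3.33 ± 0.21 in STH (SD, n = 3 each), without overlap between breeds. COL4A5 and COL4A6 lie head to head on the X chromosome and overlap by 2893 bp on opposite strands, where reads cannot be told apart without strand. COL4A3 and COL4A4, the chains best known from the kidney, stood at 0.16 to 0.39 RPKM.

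Endothelial cells also lay down type IV collagen, and sheep 30034 and 30126 had the highest values of both COL4A1 and the endothelial markers. The summed CPM of the 7 endothelial markers found was 554.7, 700.1 and 673.4 in SM and 582.9, 460.5 and 363.0 in STH. Of these 7, 6 had a fold change above 0, beside 51.4% of all genes. At an unadjusted p under 0.05, CDH5, VWF and TIE1 were higher in SM and EMCN higher in STH. The shares of all genes at such a p were 7.21% higher in SM and 10.8% higher in STH. The part of endothelial cells in the COL4A1 values was not tested. In whole skin, fewer cells of a type and less RNA per cell cannot be told apart.

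The beaded filament genes held both a set that leaned towards SM and the member with the largest difference towards STH. COL6A1, COL6A2 and COL6A3, the chains of the common type VI collagen, summed to 2288, 2219 and 2014 CPM in SM and 1688, 1869 and 1931 CPM in STH, without overlap. COL6A3 had 678.5, 650.5 and 528.1 CPM in SM and 488.9, 496.5 and 409.6 CPM in STH. Every SM sheep was above every STH sheep, with a log2 difference of 0.41 ± 0.16 (unadjusted p = 0.031, adjusted p = 0.260, edgeR's quasi-likelihood test).

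COL6A2 was also without overlap, with 461.0, 431.8 and 458.4 CPM in SM and 362.2, 387.0 and 411.4 CPM in STH, but its log2 difference of 0.22 ± 0.13 had an adjusted p of 0.373 in the same test. COL6A1 had 1149, 1136 and 1028 CPM in SM and 836.7, 985.6 and 1110 CPM in STH (log2 difference 0.18 ± 0.16, adjusted p = 0.525). There XW8 lay above SM sheep 30126. COL6A1 exceeded COL6A2 by a per-length ratio of 2.03 to 2.44 in all sheep, and the 2 genes lie 127543 bp apart on chromosome 1.

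COL6A5 and COL6A6 code for alternative type VI chains and lie on chromosome 1 on the same strand, 39786 bp apart. COL6A5 (chromosome 1, 269653942 to 269821417, minus strand, Oar_v4.0) had 3.31, 7.90 and 2.24 CPM in SM and 4.44, 54.4 and 49.0 CPM in STH. The difference was thus carried by XW5 and XW8, and XW3 lay within the SM range. The log2 difference was -2.99 ± 0.82, with an unadjusted p of 0.0059 and an adjusted p of 0.240 in edgeR's quasi-likelihood test. The adjusted p was 0.016 in edgeR's likelihood ratio test and 0.077 in DESeq2. With 1 sheep left out the log2 difference ranged from -3.71 to -2.57. It had the widest spread between sheep of the members with a count in every sheep, 24.3-fold from the lowest to the highest.

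COL6A6 did not share that pattern, with 7.14, 5.82 and 2.80 CPM in SM and 1.98, 2.18 and 4.73 CPM in STH (log2 difference 0.83 ± 0.45, adjusted p = 0.332). The ratio of COL6A5 to COL6A6 per length was 0.37, 1.077 and 0.63 in SM and 1.78, 19.8 and 8.21 in STH. XW5 and XW8 were also the sheep with the highest summed CPM of the 7 keratinocyte markers found, 12949 and 14948, against 9568 in XW3 and 8074 to 9645 in the SM sheep. KRT1, KRT10 and DSG3 of that list were higher in STH at an unadjusted p under 0.05, beside 10.8% of all genes. In DESeq2 the adjusted p was 0.022 for KRT1, 8.4e-04 for KRT10 and 0.115 for DSG3. The study listed KRT1 and KRT10 as higher in STH. Of the 7 markers, 1 had a fold change above 0. Every SM sheep was above every STH sheep for 1 marker, beside 12.3% of all genes. The reverse held for 2 markers, KRT10 and DSG3, beside 13.3% of all genes. KRT5, which carried most of the sum, overlapped between breeds (log2 difference -0.38 ± 0.19, adjusted p = 0.314, edgeR's quasi-likelihood test). The part of keratinocyte content in the COL6A5 values was not tested.

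COL7A1, the collagen of the anchoring fibrils that tie the epidermal basement membrane to the dermis, had 54.6, 39.5 and 27.3 CPM in SM and 39.0, 58.9 and 68.5 CPM in STH. The breeds overlapped, with a log2 difference of -0.46 ± 0.28 (adjusted p = 0.377, edgeR's quasi-likelihood test). COL17A1, which spans the membrane of basal keratinocytes, had 556.7, 601.2 and 593.3 CPM in SM and 533.7, 661.4 and 568.9 CPM in STH, a log2 difference of -0.01 ± 0.15 (adjusted p = 0.971). It varied 1.24-fold between the lowest and highest sheep, while the keratinocyte marker sum was higher in XW5 and XW8 than in the others. COL13A1, COL23A1 and COL25A1, the other transmembrane collagens, had means under 1 RPKM and log2 differences between -0.62 and 0.47, none at an unadjusted p under 0.05.

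Of the short-chain network, COL8A2 gave the smallest p of all the collagen genes. COL8A2 (chromosome 1, 10756459 to 10761140, minus strand, Oar_v4.0) codes for a chain of type VIII collagen, known from the layer under the corneal endothelium and from vessel walls. It had 43.4, 41.3 and 57.3 CPM in SM and 32.3, 19.2 and 16.55 CPM in STH, so that every SM sheep was above every STH sheep. The log2 difference was 1.06 ± 0.26, with an unadjusted p of 0.0032 and an adjusted p of 0.232 in edgeR's quasi-likelihood test. The adjusted p was 0.013 in DESeq2 and 0.017 in the likelihood ratio test, and the log2 difference with 1 sheep left out was 0.88 to 1.40.

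The other type VIII chain, COL8A1, pointed the other way, with 15.3, 8.19 and 8.66 CPM in SM and 11.7, 13.03 and 19.03 CPM in STH (log2 difference -0.44 ± 0.29, adjusted p = 0.401). The breeds overlapped in COL8A1. The ratio of COL8A2 to COL8A1 per length was 4.26, 7.58 and 9.96 in SM and 4.17, 2.21 and 1.31 in STH. Sheep 128 and XW3 thus lay close together and the other sheep apart. The gene listed as COL8A2 in the files was 1 of 2 collagen genes whose identifier was not in the name table, which gives the symbol COL8A2 to another record, LOC105602841. That record starts 4 bp beyond the end of COL8A2 and had 0 counts in all sheep, with 0.0237 to 0.121 RPKM.

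**Figure D4:**
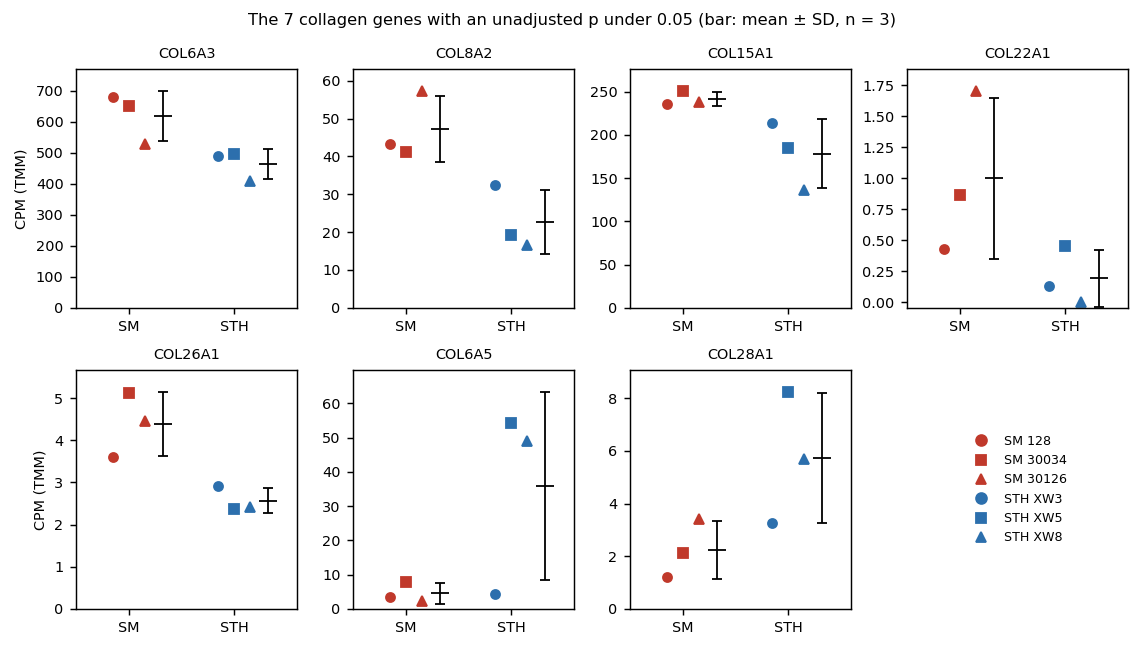
CPM by sheep of the 7 collagen genes at an unadjusted p under 0.05 (5 higher in SM, then COL6A5 and COL28A1 higher in STH), with the mean and SD of each breed (n = 3). COL6A3, COL8A2, COL15A1 and COL26A1 show no overlap between breeds, while COL22A1, COL6A5 and COL28A1 overlap.

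Of the FACIT genes, COL12A1, which binds type I fibrils, had the highest level per length, with 576.7, 563.7 and 486.5 CPM in SM and 516.2, 478.9 and 444.6 CPM in STH. Its log2 difference was 0.18 ± 0.14 (adjusted p = 0.491) and the breeds overlapped. COL14A1 and COL16A1, with means of 15.1 and 14.5 RPKM, had log2 differences of 0.04 ± 0.24 and 0.16 ± 0.15, and COL21A1 and COL19A1 had -0.35 ± 0.27 and -0.19 ± 0.80. Those of COL14A1 and COL19A1 changed sign with 1 sheep left out. COL22A1, a collagen of tissue junctions such as that of muscle and tendon, was scarce, with 13, 39 and 67 counts in SM and 4, 19 and 0 counts in STH. In CPM these were 0.43, 0.86 and 1.71 against 0.13, 0.45 and 0, and the breeds overlapped at sheep 128 and XW5. The log2 difference of 2.28 ± 0.96 (unadjusted p = 0.042, adjusted p = 0.270, edgeR's quasi-likelihood test) therefore rests on few reads.

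Of the multiplexins, which sit in basement membrane zones of vessels and epithelia, COL15A1 had 235.7, 250.6 and 237.5 CPM in SM and 213.9, 185.0 and 135.8 CPM in STH. The breeds did not overlap, with a log2 difference of 0.44 ± 0.18 (unadjusted p = 0.039, adjusted p = 0.266, edgeR's quasi-likelihood test). COL18A1, whose tail yields endostatin, had 160.4, 177.6 and 183.5 CPM in SM and 174.2, 163.6 and 159.8 CPM in STH, a log2 difference of 0.07 ± 0.13. The ratio of COL15A1 to COL18A1 per length was 1.55 ± 0.10 in SM and 1.19 ± 0.22 in STH (SD, n = 3 each), without overlap, as in COL15A1 itself. XW8 had both the lowest COL15A1 and the lowest endothelial marker sum of the 6 sheep. The part of vessel content in the COL15A1 values was not tested.

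**Figure D5:**
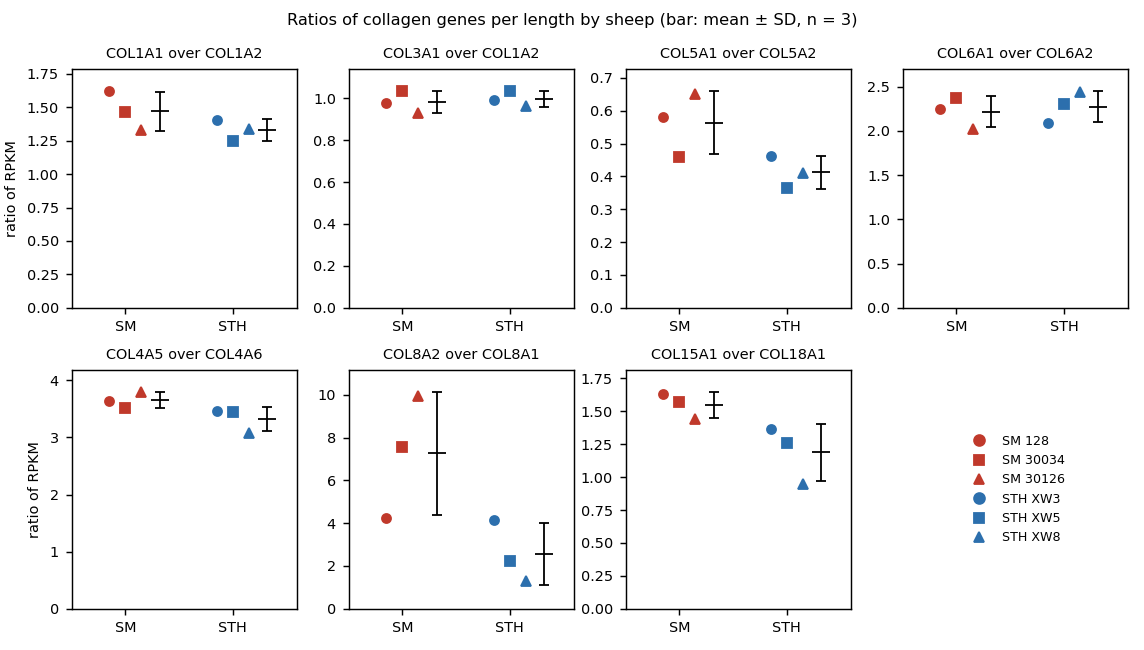
Ratios of collagen genes per length (RPKM over RPKM) by sheep, with the mean and SD of each breed (n = 3). COL1A1 to COL1A2, COL3A1 to COL1A2, COL5A1 to COL5A2 and COL6A1 to COL6A2 overlap between breeds, whereas COL8A2 to COL8A1, COL15A1 to COL18A1 and COL4A5 to COL4A6 are higher in every SM sheep. COL8A2 and COL15A1 are themselves without overlap, so their ratios are no separate result. The ratio of COL4A5 to COL4A6 was not planned and its breeds lie close, at 3.52 in sheep 30034 and 3.46 in XW3. Not drawn are the ratios of COL4A1 to LOC101115805 and of COL6A5 to COL6A6, which are higher in every STH sheep.

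Both unclassified genes were at an unadjusted p under 0.05, in opposite directions and at low levels. COL26A1 had 3.60, 5.11 and 4.46 CPM in SM and 2.92, 2.37 and 2.42 CPM in STH, without overlap (log2 difference 0.78 ± 0.27, unadjusted p = 0.020, adjusted p = 0.252, edgeR's quasi-likelihood test). It overlaps IFT22 on the opposite strand by 3346 bp, where reads cannot be told apart without strand. COL28A1, a collagen known from peripheral nerve, had 1.19, 2.103 and 3.41 CPM in SM and 3.28, 8.25 and 5.69 CPM in STH (log2 difference -1.36 ± 0.46, unadjusted p = 0.016, adjusted p = 0.247, same test). The breeds overlapped at sheep 30126 and XW3. The 6 Schwann cell markers summed to 140.7 to 186.0 CPM in SM and 122.5 to 166.8 CPM in STH, which overlapped, with 0 of the 6 at an unadjusted p under 0.05. Of all genes, 7.21% were higher in SM and 10.8% higher in STH at such a p.

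The genes that modify, export, cross-link and break down collagen gave no call past both thresholds in edgeR's quasi-likelihood test. The same test called 0% of all 15320 genes, so this absence is not particular to these lists. Beside the counts of these and the following lists, 51.4% of all genes were above 0. At an unadjusted p under 0.05, 7.21% of all genes were higher in SM and 10.8% higher in STH. Of 18 genes of chain modification and folding, 11 were above 0. PLOD3, a lysyl hydroxylase and glycosyltransferase (0.45 ± 0.15 on the log2 scale), and FKBP10, a chaperone of procollagen (0.41 ± 0.15), were higher in SM at an unadjusted p under 0.05. P4HA1, a subunit of prolyl hydroxylase, was higher in STH, with 29.2, 28.7 and 19.8 CPM in SM and 41.95, 52.7 and 37.9 CPM in STH (-0.77 ± 0.20), as was FKBP14 (-0.72 ± 0.27). The most abundant of the list per length were PPIB (0.32 ± 0.19) and the collagen chaperone SERPINH1 (0.23 ± 0.13). The adjusted p of P4HA1 was 0.240 in edgeR's quasi-likelihood test and 0.035 in DESeq2.

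Of 12 tested genes of secretion and propeptide processing, 5 were above 0, and PCOLCE2, an enhancer of procollagen trimming, was higher in STH at an unadjusted p under 0.05 (log2 difference -0.76 ± 0.25). Its relative PCOLCE (0.31 ± 0.14) and the export receptor MIA3 (-0.24 ± 0.18) were the most abundant of that list per length. Of the 5 cross-linking oxidases, 2 were above 0. LOXL3 (-0.63 ± 0.22) and LOXL4 (-0.70 ± 0.24) were higher in STH at an unadjusted p under 0.05, and the more abundant LOXL1 (0.26 ± 0.20) and LOX (-0.44 ± 0.30) were not.

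Of 15 tested fibril regulators, most of them proteoglycans that coat collagen fibrils, 8 were above 0. BGN (0.44 ± 0.15) and TGFBI (0.51 ± 0.20) were higher in SM at an unadjusted p under 0.05, and DCN (-0.35 ± 0.15), OGN (-1.17 ± 0.47), ASPN (-0.89 ± 0.38) and KERA (-1.86 ± 0.49) were higher in STH. KERA had 31.9, 13.8 and 8.10 CPM in SM and 52.5, 45.04 and 97.6 CPM in STH, without overlap. The adjusted p of KERA was 0.240 in edgeR's quasi-likelihood test and 0.0036 in DESeq2, and the study listed KERA as higher in STH. SPARC, the most abundant of the list per length, differed by 0.05 ± 0.19 on the log2 scale.

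Of 9 tested collagen receptors, 3 were above 0. The receptors found summed to 676.6 to 785.8 CPM in SM and 794.2 to 862.0 CPM in STH, without overlap but with a narrow gap. ITGB1 held a large part of these sums, with means of 273.5 CPM in SM and 343.3 CPM in STH. Every STH sheep was above every SM sheep for 2 tested receptors, beside 13.3% of all genes. The reverse held for 0, beside 12.3% of all genes. The integrin chain ITGA1 was higher in STH at an unadjusted p under 0.05 (-0.87 ± 0.32). The most abundant receptors per length were ITGB1 (-0.33 ± 0.17) and DDR1 (0.10 ± 0.14). Of 11 tested genes of collagen degradation, 6 were above 0. The gelatinase MMP2 (0.49 ± 0.14), its activator MMP14 (0.41 ± 0.14) and the inhibitor TIMP3 (0.39 ± 0.13) were higher in SM at an unadjusted p under 0.05. MMP2 had 269.2, 234.8 and 279.9 CPM in SM and 184.5, 198.0 and 174.9 CPM in STH, and TIMP1 differed by 0.36 ± 0.17 on the log2 scale.

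Fibroblasts are the main source of the fibrillar collagens, and the sum of their 11 markers was 4520 to 4819 CPM in SM and 4815 to 5544 CPM in STH, which overlapped narrowly. DCN and VIM carried most of it, and the other 9 markers summed to 1204 to 1445 CPM in SM and 1361 to 1549 CPM in STH. Of the 11, 5 were above 0, the median was -0.0035 on the log2 scale, PDGFRB (0.48 ± 0.14) and TWIST2 (0.51 ± 0.21) were higher in SM and DCN higher in STH at an unadjusted p under 0.05. DCN, DPT, LUM and FAP of that list also stand in the lists of fibril regulation or degradation above. The STH sheep were all above the SM sheep in 2 other cell type sums, with 1863 to 2356 against 1206 to 1431 CPM for the 7 smooth muscle markers and 141.3 to 178.8 against 32.9 to 68.2 CPM for the 6 adipocyte markers, both without overlap. FABP4 carried most of the adipocyte sum, and the other 5 markers overlapped, with 5.12 to 11.7 CPM in SM and 7.43 to 14.8 CPM in STH. Of the smooth muscle markers 0 of 7 were above 0, and 6 had every STH sheep above every SM sheep, beside 13.3% of all genes. ACTA2, MYH11, DES, CNN1 and ACTG2 were at an unadjusted p under 0.05. Of the 5 tested adipocyte markers 2 were above 0, and FABP4 and LPL were at such a p, both higher in STH. None of these passed both thresholds in edgeR's quasi-likelihood test. In DESeq2 the adjusted p was 8.8e-12 for MYH11, 1.8e-05 for DES, 0.0030 for ACTG2 and 0.020 for CNN1. It was 2.8e-06 for FABP4, 0.066 for ACTA2 and 0.15 for LPL. The study listed MYH11, DES, ACTG2 and FABP4 as higher in STH. The 6 cartilage markers found summed to 187.7 to 221.3 CPM in SM and 210.1 to 242.7 CPM in STH, most of it SOX9. The other 5 summed to 9.14 to 15.04 CPM in SM and 6.55 to 9.95 CPM in STH, with MATN1 and MATN3 at 0 in some sheep. Of the 5 tested cartilage markers 4 were above 0 (median 0.54 on the log2 scale), and 0 were at an unadjusted p under 0.05. The part of these cell types in the collagen values was not tested.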

How the data were processed

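Per the study's methods, polyA RNA of skin was sequenced as 1 library per ewe, checked with FastQC, and mapped by the authors to Oar_v4.0 with the RNA-seq plugin of CLC Genomics Workbench. The deposited total counts are raw counts per gene, and which classes of reads they include is not given in the sources used here. The authors also deposited RPKM, used for levels between genes, and TPM values and a score that they call CPM, which were not used. The CPM given here were computed from the counts with TMM factors.

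Collagen genes were found by symbol. The genes, classes and lists were chosen with earlier results of these data known. Genes reaching 10 counts in 3 or more sheep were fitted with edgeR 4.0.16 (R 4.3.3), breed as the only term, by the quasi-likelihood test, with Benjamini-Hochberg adjustment over 15320 genes. The thresholds were an adjusted p under 0.05 and a log2 fold change over 0.585 in size. Standard errors were derived from the fold change and its F statistic. The tests were also run on simulated data of 15142 genes, 200 of them set to differ between breeds. The quasi-likelihood test recovered 199 of these 200 with 16 false calls, and DESeq2 recovered 197 with 44 false calls. The likelihood ratio test recovered 200 with 46 false calls and the exact test 199 with 42. These counts apply to the simulated data only. With 3 sheep a breed, an exact permutation test cannot go below 0.1, so no single value was tested that way. Values of all sheep are given for genes at an unadjusted p under 0.05 or past both thresholds in another test, for the most abundant gene of each class per length, and for types I, III and V. COL6A2, COL6A6, COL8A1 and COL18A1 were added after their values were seen, as partners of those genes, as were LOC101115805 and KERA, P4HA1 and MMP2 of the lists, whose other genes were named by the same p and level. The planned ratios were COL1A1 to COL1A2, COL3A1 to COL1A1, COL4A1 to COL4A2 and COL6A1 to COL6A2, and the other ratios given were added to these. Exon length was taken as the ratio of count to RPKM, and the length drift was removed as a loess curve (span 0.5) for each sheep. DESeq2 1.42.0, other edgeR tests, normalizations and filters, and leaving out each sheep were alternatives. Symbols were checked against a RefSeq name table of another assembly (40 of 42 matched by identifier, not COL8A2 and COL20A1). A planned test of collagen genes with 0 counts but an RPKM was not run. Among the 42, the only gene at 0 counts in all sheep, COL10A1, had an RPKM of 0, and LOC105602841 was not counted among them. Depth limits only the scarce genes. No sequence table was used here.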

Additional observations from a re-analysis of the deposited data

How the results depend on the processing

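The number of genes past both thresholds was 0 with edgeR's quasi-likelihood test, 439 with DESeq2, 352 with the likelihood ratio test, 329 with the exact test, 8 with the length drift removed, 2 without a count filter, 2 with the newer quasi-likelihood estimate (added after the data were seen) and 5 at an adjusted p under 0.1. With 1 sheep left out it ranged from 0 to 1175, the latter without SM sheep 128. For the collagen genes the count was 0 with the quasi-likelihood test, 1 with DESeq2 (COL8A2) and 2 with the likelihood ratio test or the exact test (COL8A2 and COL6A5). It ranged from 0 to 1 with 1 sheep left out, the 1 being COL8A2 without SM sheep 128 (adjusted p = 0.0442). The cause of these differences was not tested.

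Collagen genes at an unadjusted p under 0.05 and higher in SM numbered 5 (7.21% of all genes), and 10 with the length drift removed, where 10% of all genes were so. With 1 sheep left out they ranged from 1 to 5: 1 without SM sheep 30034 (4.57% of all genes), 2 without XW8 (4.8%) and 3 without XW3 (5.96%) or XW5 (3.13%). Those higher in STH numbered 2 (10.8% of all genes) and ranged from 1 to 5, with 5 without SM sheep 128 (17.6%) and 1 without XW5 (4.21%). With the length drift removed the class median log2 fold change was 0.22 for the basement membrane network (-0.01 before), 0.32 for the beaded filaments (0.22 before), 0.43 for the multiplexins (0.25 before), 0.28 for the FACIT genes (0.10 before) and 0.07 for the transmembrane genes (-0.05 before). The transmembrane median ranged from -0.13 to 0.19 with 1 sheep left out, the latter without XW5.

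Of the 38 collagen genes, 26 kept their sign in each of the 15 refits that held them and 12 did not. None of these 12 was past both thresholds in any refit. COL2A1, COL13A1, COL19A1, COL22A1 and COL25A1 were too scarce for the refit with a minimum of 50 counts. With the length drift removed the log2 fold change was 0.12 for COL4A3, 0.22 for COL4A5, 0.16 for COL4A6, 0.14 for COL5A3, 0.19 for COL17A1 and 0.048 for COL19A1. With upper quartile normalization it was 0.022 for COL4A5 and 0.024 for COL17A1, and with a minimum of 50 counts -0.0014 for COL1A1. With 1 sheep left out it ranged from -0.26 to 0.14 for COL1A1, -0.73 to 0.42 for COL2A1, -0.014 to 0.58 for COL4A4, -0.11 to 0.049 for COL4A5, -0.14 to 0.0035 for COL5A3, -0.16 to 0.28 for COL14A1, -0.077 to 0.082 for COL17A1, -0.65 to 0.12 for COL19A1, -0.28 to 0.17 for COL23A1 and -1.58 to 0.30 for COL25A1. For COL19A1 that range holds only the refits without 30034, 30126 or XW3, because the count filter removed it from the others. No paired analysis was possible because the sheep are separate animals, and their labels carry animal names and no replicate number. Depth limits the scarce genes, among them COL2A1, COL19A1, COL22A1, COL25A1 and the 4 untested genes, and 3 ewes a breed limit all comparisons.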
